A study of Mus musculus with 27 samples.

Results

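The comparison described here set the parenchymal zone of the maternal liver lobule at day 16 post coitum (dpc16) against the same zone of non-pregnant (NP) livers. Its members were 3 dpc16 and 3 NP libraries of zone 2, out of 27 libraries in the series. The genes were all those with at least 1 FPKM (fragments per kilobase of transcript, scaled to a fixed number of mapped fragments) in 3 or more of these 6 libraries, which kept 11184 of the 21823 genes of the table. Both groups were wild-type female C57BL/6 mice, of the substrain C57BL/6N by the study's methods, without any transgene or drug. The NP animals were virgins of 8 to 14 weeks and the dpc16 animals were pregnant, counting the day of the plug as day 0. Zone 2 lies between the layers around the portal vein (zone 1) and those around the central vein (zone 3), and was cut from cryosections by laser microdissection before total RNA sequencing. The other libraries covered zones 1 and 3 at NP and dpc16 and all zones at dpc8. Each group had 3 libraries, and nothing in the labels said what their numbers 1, 2 and 3 stood for, so p-values measured the spread between these samples only. The study's captions for the zone data speak of 3 independent experiments, without saying whether each was 1 mouse.

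Hepatocytes are arranged along the axis from portal to central vein, and neighbouring cells divide the work of the liver among them. Portal hepatocytes make most urea, glucose and plasma protein, central hepatocytes hold glutamine synthetase and many drug-metabolising cytochromes P450, and the cells between carry intermediate levels of both sets. In late pregnancy the maternal liver is enlarged and is exposed to placental lactogens, oestrogens, progesterone and glucocorticoids. Prolactin-type hormones act through the receptor Prlr and growth hormone through Ghr, and both receptors use the kinase Jak2 and transcription factors of the Stat5 type. The question put by the comparison was how the transcripts of the middle of the lobule differed between late pregnancy and the non-pregnant state.

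Periportal and pericentral markers followed the zone labels, and midlobular markers did so in NP. In NP livers 16 of 17 periportal markers had zone 2 means between those of zones 1 and 3, falling from zone 1 to zone 3, and 15 of 16 pericentral markers ran the other way. At dpc16 the same order held for 17 of 17 periportal and 14 of 16 pericentral markers. Of 6 midlobular markers, 5 were highest in zone 2 in NP but 2 at dpc16, where the other 4 fell from zone 1 to zone 3. The depth recovered from the spacing of low FPKM values was equivalent to 12.77 Mreads (megareads) in the shallowest and 16 Mreads in the deepest NP library, and to 11.84 Mreads, 16.46 Mreads and 33.37 Mreads in dpc16 replicates 1, 2 and 3. A single dpc16 library, replicate 3, stood apart from the rest. Its log2(FPKM + 1) values correlated at 0.755 to 0.787 across genes with the other 5 libraries, whereas those 5 correlated at 0.882 to 0.963 among themselves. Albumin took 7.98% of its summed FPKM, against 20.97% and 17.9% in the other dpc16 libraries and 7.14% to 10.6% in NP. Summed FPKM of the 22 genes of a connective tissue and smooth muscle list, all of which were in the table, was 7890 in it and between 476 and 884 in the other 5, and none of these markers was at 0 in all 6 libraries. Summed FPKM of 4 Y-linked genes was 23.2 in it and at most 2.24 elsewhere. A list of 13 adipose, pancreatic and placental genes summed to 82.2 in it and to 16.2 to 37.2 elsewhere, and the placental genes Tpbpa, Prl3b1 and Psg17 were at 0 in all 6. Across the 27 libraries 6 had a Y-linked sum above 5, this one included, in all of NP, dpc8 and dpc16. The part of this library's makeup in the results was not tested by itself, and calls of named genes that were lost without it are said to be so.

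**Figure D1:**
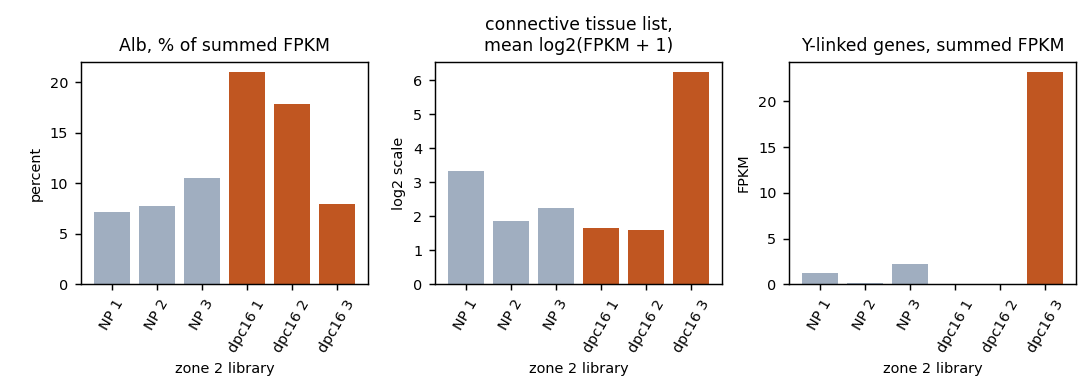
Bars show, for each of the 6 zone 2 libraries on the horizontal axis, the share of summed FPKM taken by Alb (percent), the mean log2(FPKM + 1) of the connective tissue and smooth muscle list, and the summed FPKM of 4 Y-linked genes, with NP in grey and dpc16 in orange. Replicate 3 of dpc16 has an Alb share of 7.98% and a Y-linked sum of 23.2, unlike the other dpc16 libraries.

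Genes called higher at dpc16 included those of some plasma proteins, hormone receptors and parts of the secretory route, and genes called lower included cytochromes P450, conjugating enzymes, transporters and enzymes of amino acid catabolism. Of the 11184 genes tested, 134 were higher at dpc16 (1.2%) and 236 were lower (2.11%) at an adjusted p under 0.05, from a limma model of log2(FPKM + 1) over 9 groups of 3 libraries with Benjamini-Hochberg adjustment. The median fitted log2 change was 1.47 among the genes called higher and -1.55 among those called lower, and 0.01 over all genes tested. A log2 change of at least 2 was fitted for 46 of the higher genes, and one of -2 or below for 55 of the lower. In 132 of the 134 higher genes all 3 dpc16 values lay above all 3 NP values, and in 234 of the 236 lower genes they all lay below. Over all genes tested, 8.33% were separated in this way upwards and 10.6% downwards. These shares, and the shares called, stand beside the counts of members given for each gene list below. A single call in a list was not read as a result about that list. Calls were made at every level of expression, with 9 higher and 6 lower genes among the 94 whose larger group mean was at least 1000 FPKM. The filter kept 34 genes with at least 1 FPKM in every dpc16 library and in no NP library, 18 of which were called, and 49 of the opposite kind, 17 of which were called; for these the filter itself required a difference.

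Leaving out dpc16 replicate 3 gave 161 higher and 116 lower genes, among which were 94 of the 134 higher (70.1%) and 109 of the 236 lower (46.2%), and no called gene changed sign. Replicate 3 had the lowest of the 3 dpc16 values for 160 of the 236 genes called lower, for 82 of the 134 called higher and for 44.1% of all genes tested. Leaving out the 6 libraries with Y-linked FPKM above 5 gave 332 higher and 265 lower genes, with 116 (86.6%) and 180 (76.3%) of the calls among them. A fit to the 6 libraries alone, with its own estimate of the spread, called 7 higher and 21 lower. Of the 84 genes called and named here by rule, 32 lost their call when at least 1 of the 6 libraries was left out. Sec61a1, Stat5a, Ccnd1, Gstt1 and Ppp1r3b lost it in 5 of the 6 such fits, with adjusted p in those fits between 0.0521 and 0.167. Among the others, Vwf, Srebf1, Mt1, Cyp2e1, Clec4f, Folr2, Lyz2, H2-Aa and H2-Eb1 lost it in 4, and Gadd45b, Mt2, Aco1, Gls2, Igtp, Mpeg1, Sec61g and Selenbp1 in 3; that of Mt1 was 0.204 without NP replicate 3.

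**Figure D2:**
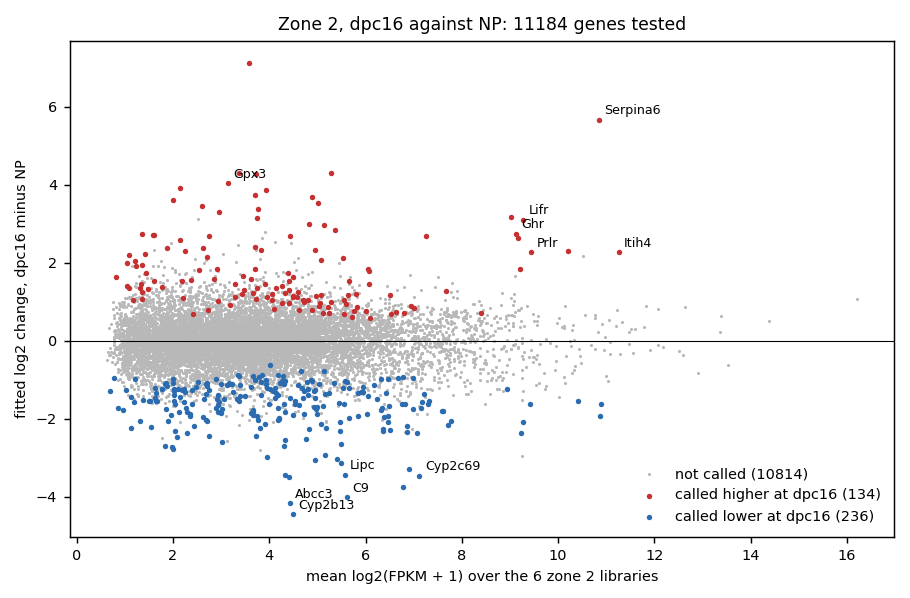
Each point is 1 of 11184 genes, placed by its mean log2(FPKM + 1) over the 6 zone 2 libraries (horizontal) and its fitted log2 change from NP to dpc16 (vertical), with called genes in red (134 higher) and blue (236 lower). Among the labelled genes Serpina6 lies at 5.67 and Cyp2b13 at -4.44.

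Serpina6, the gene of corticosteroid-binding globulin, which carries glucocorticoids in blood, lies at chr12:103646630-103657212 on the minus strand (GRCm38). Serpina6 measured 528, 178 and 178 FPKM in NP and 18982, 16742 and 7090 FPKM at dpc16. Every dpc16 library exceeded every NP library, the ratio of group means was 48.4, and the log2 change was 5.67 ± 0.49 (SE, limma adjusted p = 2.26e-07). Its share of summed FPKM rose from 0.0476% ± 0.0331 in NP to 1.75% ± 0.343 at dpc16 (SD, n = 3 each), which made it the fourth most abundant transcript of the table at dpc16 by mean share, after Alb, Trf and Ahsg. The other 25 measured genes of the glucocorticoid and steroid list held no call; among them Hsd11b1, the enzyme that regenerates active glucocorticoid, had a log2 change of 0.66 ± 0.42 (adjusted p = 0.439) and Nr3c1, the glucocorticoid receptor, -0.70 ± 0.24 (adjusted p = 0.12).

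A further 13 of the 15 largest rises had fitted log2 changes between 3.30 and 4.31, in descending order Klk1b4, Dnajc12, Sult3a2, Gpx3, Crybb3, Peg3, Nedd9, Slc41a2, Dnah11, Cyp4a31, Vwf, Crip1 and Gadd45b. Klk1b4, of the tissue kallikrein family, rose from 2.35, 1.3 and 0.618 to 70.3, 50.8 and 25.2 FPKM (adjusted p = 2.26e-07). Dnajc12, a co-chaperone of the aromatic amino acid hydroxylases, rose from 6.58, 4.99 and 13.9 to 240, 339 and 61.4 FPKM (adjusted p = 5.54e-05). In both genes every dpc16 library lay above every NP library, and replicate 3 was the lowest of dpc16. Gpx3, a secreted glutathione peroxidase with selenocysteine, rose from 5.38, 0.615 and 0 to 47.7, 31.8 and 27.7 FPKM (adjusted p = 0.000277). Crybb3, a lens crystallin gene, stood at 0, 0.466 and 0 FPKM in NP and at 22.9, 25.2 and 7.26 at dpc16. In 11 of these 13 genes replicate 3 gave the lowest dpc16 value, and in Peg3, an imprinted zinc finger gene, it gave the highest, with 34, 63.2 and 87.2 FPKM against 2.39, 2.43 and 4.43 in NP. Vwf and Gadd45b held their calls in 2 and 3 of the 6 fits that each left out 1 library, and the other 13 of the 15 held theirs in all 6. Among the rises named here, Crybb3 and Dnah11 were below 1 FPKM in every NP library and passed the filter only through dpc16. For these the filter itself required a difference, so their held calls are not support for it. Dnah11 overlaps Cdca7l on the opposite strand, so their reads may not be told apart.

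**Figure D3:**
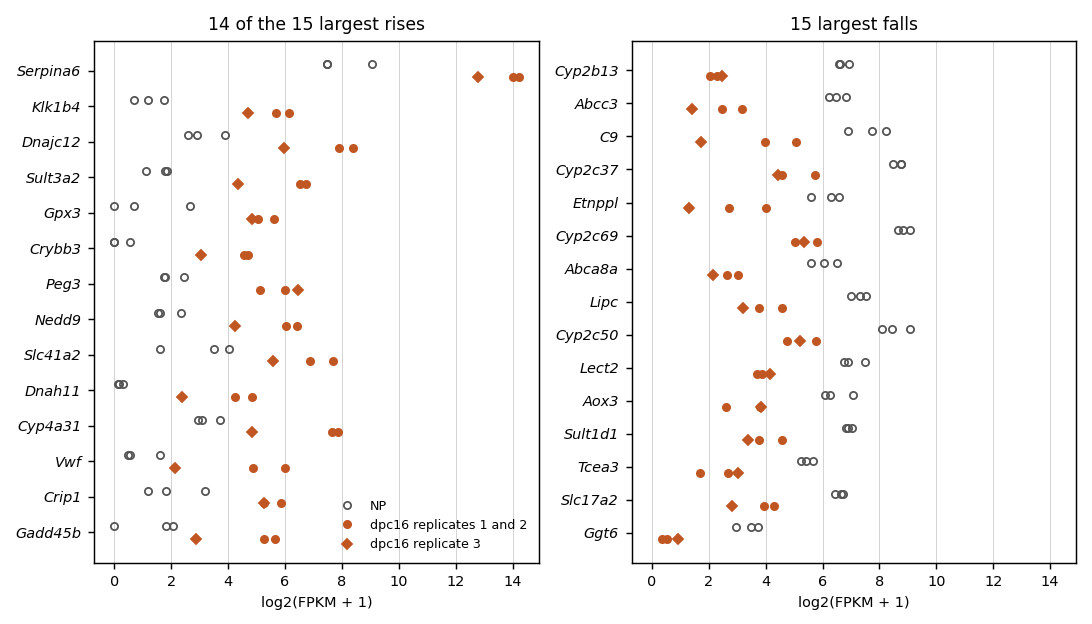
Points give log2(FPKM + 1) of each zone 2 library (horizontal axis) for 14 of the 15 genes with the largest rises (left) and the 15 with the largest falls (right), with NP as open circles, dpc16 replicates 1 and 2 as filled circles and dpc16 replicate 3 as diamonds. In every gene shown the 3 dpc16 values lie on one side of the 3 NP values, as the rule for naming them required.

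Receptors for pituitary and placental hormones of the cytokine receptor family were among the abundant transcripts that rose. The prolactin receptor gene Prlr lies at chr15:10177238-10349180 on the plus strand, and Gm21973 overlaps it on the same strand. Prlr measured 275, 300 and 375 FPKM in NP and 2482, 2041 and 697 FPKM at dpc16, a log2 change of 2.27 ± 0.38 (SE, adjusted p = 0.000987). The growth hormone receptor gene Ghr measured 204, 206 and 229 FPKM in NP and 2316, 1761 and 730 at dpc16, a log2 change of 2.75 ± 0.33 (adjusted p = 2.71e-05). In both genes all dpc16 libraries lay above all NP libraries and replicate 3 was the lowest of them; without it the log2 changes were 2.84 and 3.24. Lifr, the receptor of leukaemia inhibitory factor, is on none of the lists and was picked after its values were seen; it went from 168, 188 and 295 to 2719, 2349 and 942 FPKM (log2 change 3.11, adjusted p = 0.00068). In the prolactin and growth hormone list 2 of 18 measured members were higher and 1 was lower. The lower one was Stat5a, at 5.17, 9.97 and 7.29 FPKM in NP and 2.23, 3.35 and 3.52 at dpc16 (log2 change -1.05 ± 0.28, adjusted p = 0.041; adjusted p = 0.0596 without dpc16 replicate 3). Targets of this pathway did not pass the test, with log2 changes of 0.92 ± 0.40 for Socs2 and 0.56 ± 0.78 for Cish. The list median was 0.22, or 0.59 without replicate 3, against 0.01 over all genes.

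Promoter sequences from RefSeq (GRCm38.p6, 250 bases before and 50 after each annotated start) were read for genes that moved, to show 3 promoters that hold letters of hormone-responsive motifs. The motif TTCNNNGAA is the palindrome bound by Stat factors, and TGTTCT, with its reverse complement AGAACA, is the core of the element bound by the glucocorticoid receptor. Capitals mark matches on either strand. An overlap of both motifs is possible, since both can hold TTC.
Prlr, chr15:10223656-10223955, plus strand: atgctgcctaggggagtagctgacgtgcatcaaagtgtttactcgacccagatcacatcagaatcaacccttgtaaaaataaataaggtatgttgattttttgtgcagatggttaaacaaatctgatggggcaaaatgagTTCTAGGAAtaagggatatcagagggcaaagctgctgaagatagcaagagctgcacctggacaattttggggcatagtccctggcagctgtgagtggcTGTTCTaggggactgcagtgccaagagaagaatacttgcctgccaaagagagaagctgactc
Gpx3, chr11:54902604-54902903, plus strand: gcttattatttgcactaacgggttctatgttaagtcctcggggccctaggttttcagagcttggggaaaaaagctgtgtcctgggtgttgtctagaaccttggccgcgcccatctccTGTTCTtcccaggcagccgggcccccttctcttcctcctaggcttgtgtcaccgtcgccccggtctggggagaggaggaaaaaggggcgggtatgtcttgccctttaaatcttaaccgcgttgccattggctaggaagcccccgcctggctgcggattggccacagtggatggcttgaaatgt
C9, chr15:6445096-6445395, plus strand: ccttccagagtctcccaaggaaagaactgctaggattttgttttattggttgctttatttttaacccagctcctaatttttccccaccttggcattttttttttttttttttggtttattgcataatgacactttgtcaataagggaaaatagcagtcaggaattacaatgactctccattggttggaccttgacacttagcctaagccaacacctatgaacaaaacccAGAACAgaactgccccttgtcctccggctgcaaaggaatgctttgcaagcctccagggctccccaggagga
The Prlr match TTCTAGGAA begins 110 bases before the start and TGTTCT begins 12 bases before it; this is 1 of 3 Prlr promoters in the table, and FPKM of the whole gene do not say which start was used. The Gpx3 match begins 133 bases and the C9 match AGAACA 21 bases before the start. TTCNNNGAA occurred in 11 of 127 promoters of genes called higher (8.66%), in 22 of 250 of genes called lower (8.8%), in 6.8% of promoters of all tested genes and in 8.3% of all 32851 promoters. TGTTCT or AGAACA occurred in 10 of 127 promoters of higher genes (7.87%), in 35 of 250 of lower genes (14.0%), in 12.8% of those of all tested genes and in 19.0% of all promoters. RefSeq entries matched 99 of the higher and 179 of the lower genes. Of the 10 genes whose promoters were read one by one, the other 7 held neither motif, namely Ghr, Klk1b4, Cyp2b13, Lipc, Lect2, Cyp2c69 and Lifr.

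Genes of secreted plasma proteins changed unevenly. Itih4, an acute phase protease inhibitor, rose from 1129, 1089 and 1113 to 7538, 9000 and 2302 FPKM (log2 change 2.28 ± 0.41, adjusted p = 0.00223). Cp, which encodes the copper carrier ceruloplasmin, rose from 383, 538 and 731 to 4135, 3802 and 1169 FPKM (log2 change 2.31 ± 0.41, adjusted p = 0.0022). In both, the lowest dpc16 library was replicate 3 and still exceeded every NP library. The metallothioneins Mt1 and Mt2, which bind zinc and copper, rose by log2 changes of 2.63 ± 0.71 and 3.17 ± 0.76 (adjusted p = 0.0414 and 0.0196), and both had NP replicate 3 far below the other NP libraries, at 91.5 and 31.1 FPKM. In Mt1 the groups overlapped, with dpc16 replicate 3 at 489 FPKM and NP replicate 1 at 510.5. Of the acute phase and metallothionein list these 4 of 29 measured members were higher and none was lower, with a list median of 0.22, or 0.99 without replicate 3. There were 10 higher when libraries with Y-linked FPKM were dropped and 9 with array weights, which let libraries that vary more count less, and again none lower. Classical inflammatory members did not pass the test, with log2 changes of -0.02 ± 1.13 for Saa1 and 0.22 ± 0.58 for Hp. Apoc2, the activator of lipoprotein lipase, rose from 279, 308 and 346 to 1762, 1560 and 506 FPKM (log2 change 1.85 ± 0.37, adjusted p = 0.00539). Lipc, hepatic lipase, moved the other way, and these 2 were the called genes among the 30 of the lipoprotein list. Its median turned from -0.38 to 0.20 without replicate 3, and it held 7 higher and 1 lower when libraries with Y-linked FPKM were dropped, 3 and 4 under a connective tissue covariate (a term for the level of that list in each library), and 5 and 3 with array weights.

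Albumin itself measured 44042, 45893 and 70074 FPKM in NP and 203116, 154728 and 41785 at dpc16, so the groups overlapped through replicate 3 (log2 change 1.07 ± 0.49, adjusted p = 0.241). Without that library the Alb change was 1.77 (adjusted p = 0.018). The coagulation list held no called gene of 31, with a median of 0.05, and the alpha-1 antitrypsin family none of 8, with a median of 0.75. Without replicate 3 these medians were 0.53 and 1.34, and 3 and 2 members were called higher. When libraries with Y-linked FPKM were dropped 10 and 5 were higher, and with array weights 6 and 7. The plasma carrier list, which held neither Serpina6 nor Cp, gave no higher and 1 lower call among 19, with a median of 0.27, or 0.80 without replicate 3. The lower one was Ttr, from 3368, 3721 and 3923 to 1442, 1264 and 479 FPKM (adjusted p = 0.00485, and 0.0258 without replicate 3). The number of this list called higher was 2 without that library, 10 when libraries with Y-linked FPKM were dropped and 8 with array weights. Among iron handling genes Tfrc, the transferrin receptor, rose from 9.25, 8.18 and 14.6 to 39.2, 43.8 and 29.9 FPKM (log2 change 1.75 ± 0.36, adjusted p = 0.00636), while Aco1, the cytosolic aconitase that doubles as an iron sensor, fell from 79.6, 81.4 and 67.1 to 36.1, 33.8 and 28 FPKM (adjusted p = 0.0163; adjusted p = 0.0647 without dpc16 replicate 3). Cp is on that list as well, so 2 of its 24 measured members were higher and 1 was lower.

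Subunits of the channel through which nascent chains enter the endoplasmic reticulum, on their way out of the cell, were higher at dpc16. Of 32 measured genes of the secretory pathway and unfolded protein response list, 30 had fitted changes above 0, 2 were called higher and none lower, and the median log2 change was 0.75, or 1.02 without replicate 3, against 0.01 over all genes. The count of higher genes was 1 without replicate 3, 6 when libraries with Y-linked FPKM were dropped, 4 with a connective tissue covariate and 21 with array weights. The 2 called were the channel subunits Sec61a1 and Sec61g. Sec61a1 rose from 73.4, 81.1 and 72 to 139, 170 and 86.2 FPKM (log2 change 0.74 ± 0.19, adjusted p = 0.0348). Sec61g rose from 19.8, 35.6 and 32.6 to 60.6, 97 and 102 FPKM (1.53 ± 0.36, adjusted p = 0.0174; adjusted p = 0.0712 without dpc16 replicate 3). The chaperones Hspa5 and Hsp90b1 had log2 changes of 1.02 ± 0.50 and 0.90 ± 0.39 and did not pass.

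On the side of the falls, Cyp2b13, a female-predominant cytochrome P450, had the largest. Cyp2b13 went from 119, 95.5 and 97.1 to 3.14, 3.88 and 4.47 FPKM, a 27.1-fold lower mean (log2 change -4.44 ± 0.45, adjusted p = 3.16e-06). Abcc3, which exports bile acids and glucuronides across the blood-facing membrane of hepatocytes, lies at chr11:94343295-94392997 on the minus strand. Abcc3 went from 112, 88.3 and 74.2 to 7.92, 4.58 and 1.65 FPKM, a 19.4-fold lower mean (log2 change -4.16 ± 0.52, adjusted p = 3.98e-05). C9, the last component of the complement membrane attack complex, lies at chr15:6445327-6498751 on the plus strand, and the promoter printed above overlaps its start. C9 went from 117, 212 and 299 to 32.7, 14.9 and 2.33 FPKM, a 12.6-fold lower mean (log2 change -4.02 ± 0.64, adjusted p = 0.000753). No dpc16 library reached the lowest NP library in any of these genes, and in Abcc3 and C9 replicate 3 was the lowest of all. Without it the log2 changes of Abcc3 and C9 were -3.69 (adjusted p = 0.000319) and -3.08 (adjusted p = 0.00359). C9 was the only call among 32 measured complement genes, whose median was -0.30, or 0.17 without replicate 3.

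The other 12 of the 15 largest falls, between -2.77 and -3.75, were Cyp2c37, Etnppl, Cyp2c69, Abca8a, Lipc, Cyp2c50, Lect2, Aox3, Sult1d1, Tcea3, Slc17a2 and Ggt6. Cyp2c37, a P450 of the arachidonic acid epoxygenase group, fell from 433, 427 and 356 to 52.4, 22.5 and 20.6 FPKM. Lipc fell from 184, 157 and 127 to 22.8, 12.5 and 8.23 FPKM (adjusted p = 3.17e-06). Lect2, a secreted hepatokine with pericentral expression, fell from 107, 119 and 179 to 13.7, 12 and 16.9 FPKM (adjusted p = 2.15e-05). Separation of the groups in these genes was required by the rule for naming them. Etnppl, a phospholyase of ethanolamine phosphate with periportal expression, fell from 47.1, 94.6 and 78.2 to 15, 5.54 and 1.47 FPKM. All 15 held their calls without dpc16 replicate 3 and 14 in all 6 fits that left out 1 library, Cyp2c50 failing in 1. Ggt6 was below 1 FPKM in every dpc16 library and passed the filter only through NP, so the filter itself required a difference. With the 6 libraries alone 13 of these 15 falls, but 5 of the 15 rises, passed the test.

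Several enzymes of drug and hormone metabolism fell, and 1 rose. Of 41 measured Cyp2 and Cyp3 genes 7 were called lower, namely Cyp2b13, Cyp2c37, Cyp2c69, Cyp2c50, Cyp2c67, Cyp2c23 and Cyp2e1, and none higher, with a median of -0.70. Without replicate 3 the median was -0.53, with 6 lower and 3 higher. Cyp2e1, the ethanol-oxidising P450 of the central lobule, went from 4867, 2620 and 2875 to 1564, 1190 and 687 FPKM (log2 change -1.61 ± 0.41, adjusted p = 0.0314; adjusted p = 0.131 without dpc16 replicate 3). Several of these genes are close paralogs, so reads may have been divided among them. Of 52 conjugating enzymes Sult3a2 was higher, and 4 were lower, among them Sult1d1, Ugt1a6b and Gstt1, with a median of -0.80, or -0.41 without replicate 3. Without that library Gstt1 did not pass (adjusted p = 0.144). Sult3a2, a sulfotransferase, rose from 1.19, 2.63 and 2.43 to 91, 105 and 19.2 FPKM, and Sult1d1, another one, fell from 131, 113 and 118 to 22.6, 12.7 and 9.45. Among antioxidant and selenoprotein genes Gpx3 was higher, and Gpx1, Selenbp1 and Aox3 were lower, of 28 measured; without replicate 3 Selenbp1 did not pass (adjusted p = 0.127). Gpx1, the intracellular counterpart of Gpx3, fell from 1979, 2338 and 2690 to 1103, 748 and 594 FPKM (log2 change -1.55 ± 0.32, adjusted p = 0.00609).

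Uptake carriers of the hepatocyte membrane were lower in 4 of 21 measured cases. Slc10a1, the sodium-dependent bile acid carrier, fell from 352, 329 and 403 to 167, 115 and 56.1 FPKM (adjusted p = 0.0124; adjusted p = 0.0766 without dpc16 replicate 3). Slco1b2, an organic anion carrier, fell from 391, 345 and 362 to 173, 110 and 58.9 FPKM (adjusted p = 0.00697). The other calls were the monocarboxylate and amino acid carriers Slc16a10 and Slc16a12 (the latter with an adjusted p of 0.0543 without replicate 3), and the list median was -0.78, or -0.30 without replicate 3. Among 25 ABC transporters Abcc3 and Abca8a were lower; the canalicular exporters Abcb11 and Abcc2 had log2 changes of -1.31 ± 0.45 and -0.63 ± 0.35 and did not pass. All 21 measured genes of bile acid synthesis and its control had fitted changes below 0, and Cyp27a1, the enzyme that opens the acidic pathway, was the only call (log2 change -1.61 ± 0.35, adjusted p = 0.0101; adjusted p = 0.0619 without replicate 3). Cyp7a1, the rate-limiting enzyme of the classical pathway, averaged 72.6 FPKM in NP and 16.6 at dpc16 (log2 change -1.86 ± 0.76, adjusted p = 0.185). Thrb, a thyroid hormone receptor, was the only call among 29 nuclear receptors, falling from 38.7, 33.2 and 44.9 to 17.7, 13 and 8.75 FPKM (adjusted p = 0.00223).

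Lipid synthesis was represented among the falls by a few central genes. Scd1, the stearoyl-CoA desaturase, went from 2004, 1700 and 732 to 204, 477 and 190 FPKM (-2.35 ± 0.44, adjusted p = 0.00307). Srebf1, the transcription factor that drives lipogenic genes, went from 234, 217 and 114 to 33.5, 29.4 and 48.9 FPKM (-2.27 ± 0.58, adjusted p = 0.0299). The groups did not overlap in either gene and both kept their calls without replicate 3. With Agpat2, 3 of 26 lipogenic genes were lower and none higher; Fasn and Acaca had log2 changes of -1.26 ± 0.72 and -0.69 ± 0.46 and did not pass. The list median was -0.54, or -0.87 without replicate 3. All 23 cholesterol synthesis genes had fitted changes below 0, with a median of -0.92, or -1.01 without replicate 3, but none passed the test. In glucose and glycogen metabolism 3 of 42 measured genes were lower, among them Ppp1r3b (a glycogen-targeting phosphatase subunit) and Khk (ketohexokinase), and the gluconeogenic Pck1 and G6pc had log2 changes of -0.60 ± 0.88 and -0.86 ± 0.72. Without replicate 3 Ppp1r3b and Khk had adjusted p of 0.127 and 0.0655. In fatty acid oxidation and ketogenesis 1 of 41 genes was called, Cyp4a31, and the median was 0.12, or 0.91 without replicate 3. There were 2 higher calls without that library, 9 when libraries with Y-linked FPKM were dropped and 7 with array weights.

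Genes of amino acid catabolism mostly had lower fitted levels at dpc16, and 6 passed the test. Of 56 measured genes of the urea cycle and amino acid breakdown 52 had fitted changes below 0, 6 were called lower and none higher, and 26 had all dpc16 values below all NP values, with a median of -0.79. Over all genes tested, 2.11% were called lower and 10.6% had all dpc16 values below all NP values. Besides Etnppl the calls of this list were Gls2, the periportal glutaminase, Cth of cysteine synthesis, Prodh of proline oxidation, Afmid of tryptophan breakdown and Aass of lysine breakdown. Cth fell from 209, 337 and 400 to 101, 82.6 and 23.7 FPKM (log2 change -2.36 ± 0.48, adjusted p = 0.0054), and Gls2 from 245, 274 and 261 to 69.3, 65.4 and 28.1 FPKM (-2.34 ± 0.55, adjusted p = 0.0172). Afmid fell from 82.6, 60.4 and 68.7 to 16.3, 13 and 16 FPKM (-2.15 ± 0.37, adjusted p = 0.0013). Replicate 3 was the lowest dpc16 library in Cth and Gls2 but not in Afmid. The list median was -0.25 without replicate 3, with 4 genes called lower, and 11 were lower when libraries with Y-linked FPKM were dropped, 19 with the connective tissue covariate and 12 with array weights. Without replicate 3 Gls2 and Aass had adjusted p of 0.092 and 0.0723. Gls2 overlaps Spryd4 on the opposite strand, and Afmid overlaps Gm20708 on the same strand and Tk1 on the opposite one, so their reads may not be told apart. Same-strand overlaps also hold for Apoc2 with Gm44805, Igtp with Irgm2 and Ugt1a6b with 8 other Ugt1a genes.

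A few zone markers of either side were called lower in the middle of the lobule. Of 17 periportal markers 2 were called lower (Etnppl and Gls2) and of 15 pericentral markers 4 (Cyp2c37, Lect2, Cyp2e1 and Cyp27a1), with medians of -1.16 and -1.01, or -0.77 and -0.80 without replicate 3. The periportal balance was not stable, with 2 higher and 1 lower without replicate 3, 3 higher and 3 lower when libraries with Y-linked FPKM were dropped, and 2 higher with 6 lower under the connective tissue covariate and with 4 lower under array weights. For pericentral markers the same fits gave 2, 5, 6 and 8 lower and none higher. The central marker Glul averaged 145 ± 37.2 FPKM in NP and 125 ± 21.2 at dpc16 (SD, n = 3), a log2 change of -0.19 (95% interval -1.08 to 0.69). Cyp1a2 stood at 260, 226 and 253 against 104, 61.3 and 70.7 FPKM without overlap, at an adjusted p of 0.0859, which was 0.181 without replicate 3 and 0.034 when all libraries with Y-linked FPKM were dropped. Axin2, a Wnt target, averaged 4.93 and 0.851 FPKM (adjusted p = 0.13) and Tbx3 13.6 and 16.2 FPKM (adjusted p = 0.823). The periportal Cyp17a1 measured 79.7, 46 and 82 FPKM in NP and 391, 401 and 64.7 at dpc16; it overlapped through replicate 3 (adjusted p = 0.147) and was called without that library (log2 change 2.55, adjusted p = 0.0171). Of 6 midlobular markers Ccnd1, cyclin D1, was the only call, falling from 42.9, 74.4 and 71.4 to 15.4, 19.7 and 21 FPKM (log2 change -1.67 ± 0.43, adjusted p = 0.0314). Without dpc16 replicate 3 the Ccnd1 change had an adjusted p of 0.0566.

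Proliferation genes gave no call but Ccnd1 among 26 measured. Mki67 measured 2.17, 1.59 and 0.855 FPKM in NP and 2.04, 0.474 and 4 at dpc16, a log2 change of 0.19 with a 95% interval of -1.09 to 1.46, and Hmmr was below the filter on low values. The list median was -0.06, or -0.80 without replicate 3, in which the list summed to 452 FPKM against 72.2 and 68.6 in the other dpc16 libraries and 119 to 159 in NP. Of the glucose-related genes named by the study, Slc45a3, H6pd and Pdk4 had 95% intervals that held 0, of -1.86 to 0.51, -0.53 to 1.21 and -1.71 to 1.06 log2 units. H6pd measured 114, 115 and 127 FPKM in NP and 226, 251 and 59.7 at dpc16; its log2 change was 1.001 without replicate 3 (adjusted p = 0.149), and it was called when the libraries with Y-linked FPKM were left out (adjusted p = 0.0143). Sgk1 measured 33, 28.8 and 40.2 FPKM in NP and 129, 119 and 31 at dpc16, so that replicate 3 fell within the NP range (log2 change 1.20, 95% interval -0.22 to 2.61), with an adjusted p of 0.197 without replicate 3 and of 0.0373 when those libraries were dropped. Immediate early genes held 1 call, Gadd45b, of 22, and circadian clock genes none of 18, with medians of 0.54 and -0.29, or -0.15 and -0.20 without replicate 3.

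Some genes of resident macrophages and of antigen presentation fell in dpc16 zone 2. All 20 Kupffer cell and macrophage genes had fitted changes below 0, 13 without overlap, and 4 were called lower, namely Clec4f, Lyz2, Folr2 and Mpeg1, with a median of -1.07, or -0.53 without replicate 3. Over all genes tested, 10.6% lay below without overlap and 2.11% were called lower. The list summed to 586 to 934 FPKM in NP and to 513, 472 and 148 at dpc16, and no member was at 0 in all 6 libraries. Clec4f, a lectin particular to Kupffer cells, went from 97.5, 75.7 and 121 to 60.6, 57.7 and 15.5 FPKM (log2 change -1.32 ± 0.35, adjusted p = 0.041). Replicate 3 was the lowest in each of these 4 genes, and none of the 4 passed without it, with adjusted p between 0.158 and 0.228. The list held 1 lower when libraries with Y-linked FPKM were dropped, 12 under the connective tissue covariate and 1 with array weights. In such bulk samples fewer cells of a type and less RNA per cell cannot be told apart. Of 12 measured blood and immune genes the 4 called lower were Cd74, H2-Aa, H2-Ab1 and H2-Eb1, all of antigen presentation by class II molecules. H2-Ab1 went from 27.9, 28.1 and 24.5 to 8.95, 7.78 and 7.55 FPKM, with close replicates in both groups (log2 change -1.61 ± 0.29, adjusted p = 0.00258; adjusted p = 0.0108 without replicate 3). Cd74 also passed without it (adjusted p = 0.0442) and the other 2 did not.

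All 28 measured interferon-stimulated genes had fitted changes below 0, with a median of -0.87, or -0.61 without replicate 3, but 23 did not pass the test. The 5 called lower included Gbp3, Irf1, Gbp2 and Igtp. Gbp3 fell from 10.3, 9.49 and 3.73 to 1.22, 1.81 and 0.988 FPKM (adjusted p = 0.00458) and was the 1 that passed without replicate 3 (adjusted p = 0.0217). Stellate cell genes held 1 call of 18, the retinol-esterifying enzyme Lrat, from 9.69, 6.3 and 9.18 to 3.37, 2.21 and 0.925 FPKM (adjusted p = 0.0093; adjusted p = 0.0619 without replicate 3). Endothelial genes held 1 of 23, Vwf, which rose from 0.452, 0.399 and 2.01 to 28.4, 62.7 and 3.35 FPKM while 19 of the 23 had fitted changes below 0. Neither connective tissue genes (16 measured, median 0.56, or -0.89 without replicate 3) nor biliary genes (7 measured, median -0.21, or -0.54 without replicate 3) held a call. The major urinary proteins gave none of 13, with a median of -0.82, or -0.25 without replicate 3. Lect2 was the only call among 28 genes of the IGF axis and hepatokines, whose median was 0.32, or 0.12 without replicate 3, and Tgfa, a ligand of the EGF receptor, the only one among 14 of the EGF and HGF list, falling from 4.92, 5.28 and 6.94 to 2.27, 1.99 and 1.25 FPKM (adjusted p = 0.00736).

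Counts of other lists moved with the fit as well. In the IGF axis and hepatokine list 1 was higher without replicate 3, 7 when libraries with Y-linked FPKM were dropped and 8 with array weights, and in the glucocorticoid and steroid list 2, 5 and 4 were. The prolactin and growth hormone list held 2 higher and none lower without replicate 3. It held 3 higher and none lower when libraries with Y-linked FPKM were dropped, but 2 higher and 5 lower with array weights. The connective tissue covariate and array weights gave 13 and 10 lower of the Cyp2 and Cyp3 genes, 14 and 13 of the conjugating enzymes, 5 and 10 of the lipogenic genes, 7 and 8 of the glucose and glycogen genes, 5 and 3 of the bile acid genes, 5 and 5 of the nuclear receptors and 6 and 3 of the complement genes. When libraries with Y-linked FPKM were dropped, glucose and glycogen genes held 5 higher and 5 lower. Iron handling genes then held 4 higher and 1 lower, with 3 and 3 under the connective tissue covariate and 6 and 1 with array weights.

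**Figure D4:**
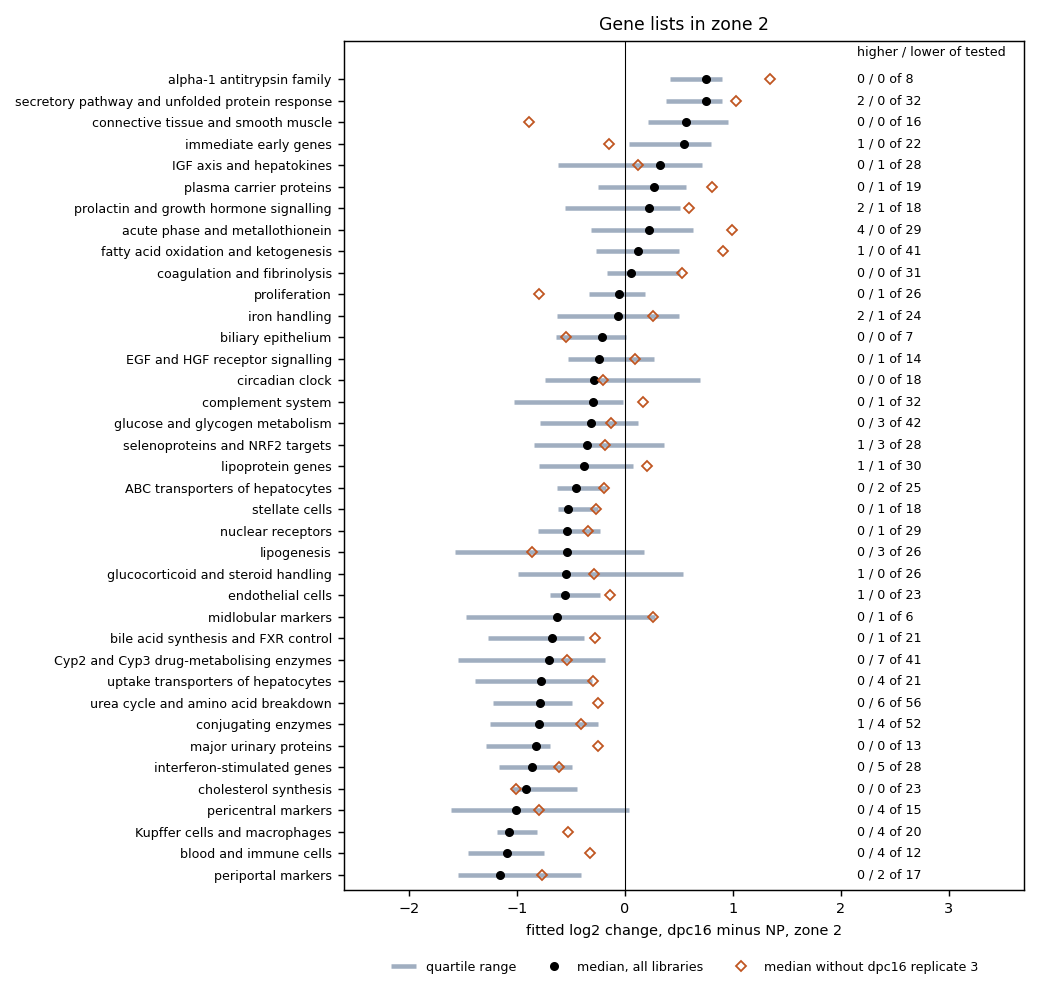
For each gene list with at least 5 measured members, the horizontal axis gives the fitted log2 change in zone 2: black points are medians, grey bars run from the lower to the upper quartile of the members and open diamonds are medians without dpc16 replicate 3; the numbers at the right count members called higher and lower of those tested. The secretory list has a median of 0.75 and 1.02 without replicate 3, whereas the connective tissue list moves from 0.56 to -0.89.

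Zones 1 and 3 of the same stages, measured in other libraries, were used to see whether these changes belonged to zone 2. Among these libraries, NP zone 1 replicate 1, NP zone 3 replicate 2 and dpc16 zone 3 replicate 3 had Y-linked sums above 5 (15.39, 7.92 and 16.55). Replicate 3 of dpc16 deviated together in zones 2 and 3 (correlation 0.852), so zone 3 was not an independent comparison. In zone 1, 168 of the 11184 genes were called (1.5%), and in zone 3, 163 (1.46%). Of the 134 genes higher in zone 2, 64 were called higher in zone 1, 57 in zone 3 and 48 in both. Of the 236 genes lower in zone 2, 34 were called lower in zone 1, 58 in zone 3 and 17 in both. Fitted changes had the same sign in zone 1 for 131 of the higher and 224 of the lower genes, and in zone 3 for 131 and 232. The same share over all genes tested was not counted. Calls within zones 1 and 3 were not redone without the libraries with Y-linked FPKM. Tested directly, no gene changed differently between zones 2 and 1 (0.0%, with 501 genes at an unadjusted p under 0.05), and 1 gene did between zones 2 and 3 (0.00894%, with 288 genes at an unadjusted p under 0.05). Calls made in zone 2 alone, 61 higher and 161 lower, were therefore not shown to differ from the other zones.

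The gene that differed was Cyp2c69, at chr19:39842814-39886799 on the minus strand, a P450 whose level in NP livers rose towards the central vein. In zone 2 it fell from 405, 452 and 535 to 54.7, 31.3 and 39.6 FPKM (log2 change -3.47 ± 0.33, adjusted p = 9.27e-07). In zone 3 it averaged 763 ± 134 FPKM in NP and 501 ± 90.9 at dpc16 (SD, n = 3), a log2 change of -0.61, and in zone 1 it averaged 124 ± 42.4 and 9.06 ± 2.4, a log2 change of -3.61. The fall in zone 2 exceeded that in zone 3 by 2.86 on the log2 scale (difference -2.86 ± 0.46, limma adjusted p = 0.0358). The difference was between -2.67 and -3.06 when any 1 of the 12 libraries compared was left out, but passed the threshold in 2 of these 12 fits. It had an adjusted p of 0.00296 when libraries of a stage and number formed a replicate block by stage, and of 0.0616 with the number as a fixed replicate block. Serpina6 rose in all zones, by 6.54 in zone 1 and 4.66 in zone 3 on the log2 scale, and the intervals of the difference from zone 2 held 0 (-2.30 to 0.57 and -0.42 to 2.45). Abcc3 fell in all zones as well. C9 fell by 4.86 in zone 3, to a dpc16 mean of 0.634 FPKM, and by 2.08 in zone 1 (adjusted p = 0.123); the difference between zones 2 and 1 was -1.94 with a 95% interval of -3.83 to -0.06 and an adjusted p of 0.808.

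**Figure D5:**
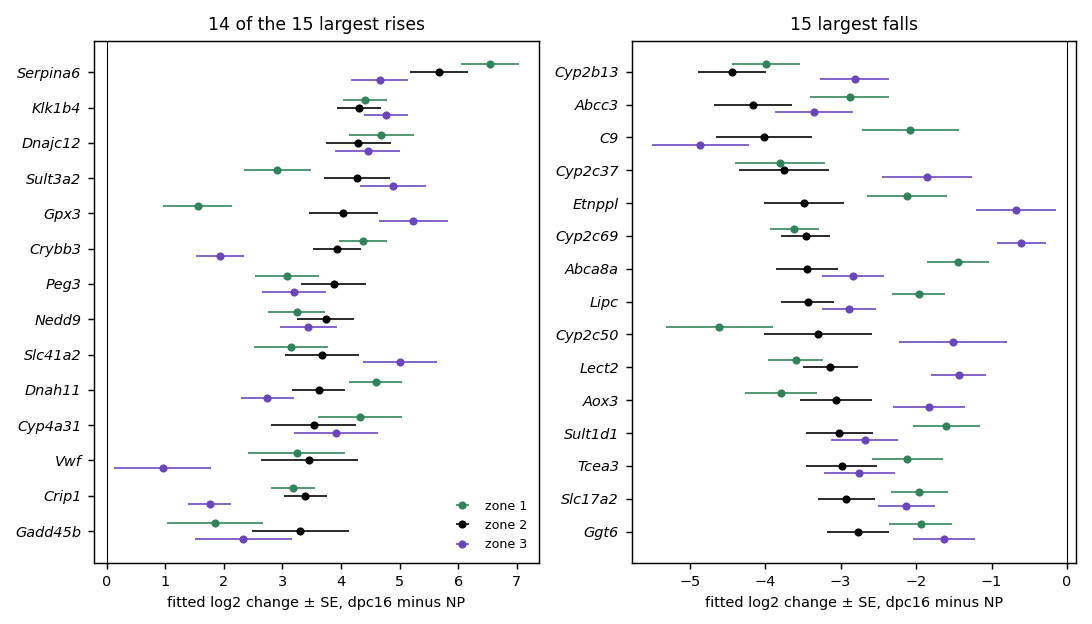
Points give the fitted log2 change from NP to dpc16 with its SE (horizontal axis) in zone 1 (green), zone 2 (black) and zone 3 (purple), for 14 of the 15 largest rises (left) and the 15 largest falls (right) of zone 2. Cyp2c69 shows -3.47 in zone 2 and -0.61 in zone 3, and Serpina6 rises in every zone.

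At dpc8 most of these genes lay nearer to their NP level than to that of dpc16, and many lay between the levels. The dpc8 libraries are set beside the others as a description, since both comparisons share the NP libraries. Replicate 2 of dpc8 zone 2 was among the libraries with a Y-linked sum above 5 (16.14). Its connective tissue list had a mean log2(FPKM + 1) of 6.17, against 4.12 and 1.53 in dpc8 replicates 1 and 3. It gave the lowest dpc8 value of Serpina6, C9, Ghr, Prlr and Cyp2b13, but not of Abcc3. The dpc8 counts below were not made without it. Serpina6 measured 402, 155 and 256 FPKM at dpc8, within or next to the NP range, and Abcc3 60.1, 88.3 and 117. C9 stood at 243, 127 and 237, Ghr at 199, 117 and 175 and Prlr at 583, 283 and 476 FPKM. Among the large falls Cyp2b13 lay between the groups at 40.7, 27.8 and 65.4 FPKM. For 120 of the 134 genes called higher and 185 of the 236 called lower, the fitted log2 distance of dpc8 from NP was smaller than that from dpc16. The dpc8 mean lay between the NP and dpc16 means for 109 of the higher and 193 of the lower genes.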

How the data were processed

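Per the labels and the methods of the study, RNA of laser-microdissected zones was depleted of ribosomal RNA and sequenced from one end; reads were trimmed with cutadapt, aligned to mm10 with HISAT2 2.1.0, and FPKM were computed by the authors with Cuffdiff of Cufflinks 2.2.1 and deposited as 1 table of protein-coding genes. Summed FPKM of the 6 zone 2 libraries ran from 523854 to 968379. Their median-of-ratios size factors, which compare the typical gene between libraries, lay between 1.001 and 1.052. The typical gene was thus already on nearly the same scale in each library, and median-of-ratios scaling could change little. Depth was read from the spacing of low values, 95.31% to 97.13% of which lay within 0.1 read of a whole number. Counts were not used here, and no count test was run.

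Values were analysed as log2(FPKM + 1), which understates changes of low genes. Genes needed 1 FPKM in 3 of the 6 libraries compared. A mean for each of 9 groups was fitted over 27 libraries with limma 3.58.1 (R 4.3.3, intensity trend, robust), two-sided, with Benjamini-Hochberg adjustment over 11184 genes at a threshold of 0.05; differences between zones were interaction contrasts. The script was tested on simulated data. All adjusted p-values are from limma. Positions are from the GENCODE vM21 annotation of GRCm38. Of 1056 entries in 40 gene lists, 12 were not in the table. Genes named were the 15 largest non-overlapping changes in each direction, Serpina6, Abcc3 and C9, genes the study names, list members, genes that differed between zones, and Alb; others are said to be picked after their values were seen. A few genes are not reported here. Members, lists and tests were chosen with earlier results of these data known. Alternatives were another pseudocount, filters and scalings, array weights, fewer libraries, a replicate block, a connective tissue covariate and leaving out each library.

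Same-numbered NP and dpc16 libraries of zone 2 did not deviate together (correlations of -0.0145, 0.189 and 0.0984), so the numbers were not taken as pairs. Within dpc16, zone 2 and zone 3 libraries of 1 number did (0.603, 0.65 and 0.852), as did zones 2 and 1 (0.292, 0.269 and 0.352). Replicates 1 and 2 of unlike number in zones 2 and 3 also did (0.521 and 0.552), and replicate 3 of either zone deviated against them (-0.69 to -0.738). Agreement by number in these zones was thus not told apart from a split of replicate 3 from the others. Within NP the correlations of same-numbered libraries were 0.301, 0.0393 and -0.0815 with zone 3 and 0.173, 0.316 and -0.082 with zone 1.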

Additional observations from a re-analysis of the deposited data

Results flagged for a closer look

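Cyp2c69 was the gene whose change from NP to dpc16 differed between zones by a test of the difference itself. The fitted change in zone 2 minus that in zone 3 was -2.86 on the log2 scale (95% interval -3.82 to -1.90, limma adjusted p = 0.0358). All 3 dpc16 values of zone 2 lay below all NP values, and in zone 3 the dpc16 values of 583, 515 and 403 FPKM also lay below the NP values of 634, 753 and 901. Cyp2c69 has close paralogs among which reads may have been divided.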

How the results depend on the processing

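Under every alternative the median change of all genes stayed between -0.021 and 0.036. The 370 genes changed (134 higher, 236 lower) became 1029 with array weights (523 and 506), 28 with the 6 libraries alone (7 and 21), 597 when the 6 libraries with Y-linked FPKM were dropped (332 and 265) and 821 with a connective tissue covariate (339 and 482). Leaving out 1 library gave 215 to 346 genes changed, 83 to 161 higher and 116 to 250 lower; NP replicate 3 (83 higher, 132 lower), dpc16 replicate 1 (96 higher, 250 lower) and dpc16 replicate 3 (161 higher, 116 lower) gave these limits. Differences between zones 2 and 1 numbered 0 in each such fit and 1 without a filter on low values (2210407C18Rik). Differences between zones 2 and 3 numbered 3 without a filter, 2 with a filter over all 27 libraries, 0 with the 12 libraries compared and 0 to 1 with 1 library left out; the adjusted p of Cyp2c69 ranged from 0.00198 to 0.203. Among genes not called, the change of Mki67 was -0.47 with array weights, -0.23 when libraries with Y-linked FPKM were dropped and -0.02 with the connective tissue covariate. With 1 library left out it ranged from -0.23 to 0.65, that of H6pd from -0.025 to 1.001 and that of Tbx3 from -0.11 to 0.71. The cause was not tested.

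With the number as a fixed replicate block, 415 genes changed (154 higher, 261 lower) and 0 differed between zones 2 and 3; with a replicate block by stage, 379 changed (137 and 242) and 2 differed between zones 2 and 3, Cyp2c69 and Gtpbp1. Same-numbered NP and dpc16 libraries of zone 2 did not deviate together. Same-numbered dpc16 libraries of different zones did, and so did replicates 1 and 2 across numbers in zones 2 and 3. Both bear on the differences between zones.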
